A study of Mus musculus with 20 samples.

Results

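In the hippocampal list of edited RNA sites, 195 genes had sites that were listed in neither cortex nor cerebellum. These genes were chosen by their gene symbol, which occurs in the hippocampal list and in no row of the other lists. They held 251 of the 13461 hippocampal sites and were 195 of its 2547 genes, or 7.66%, which is the background for every gene group below. In all lists together there were 25978 sites in 3731 genes. The choice rests on the site calls themselves, so the absence of these genes elsewhere and the number of their sites are descriptions and were not tested.

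The study measured N6-methyladenosine (m6A) in bulk polyA RNA of the mouse brain. All mice had received intraperitoneal tamoxifen (20 mg/kg, once per 24 h, 5 days), with collection of the regions 7 days later. The hippocampal libraries were 4 from mice of genotype APOBEC1-YTH and 2 of genotype APOBEC1-YTHmut, while cortex and cerebellum each had 4 and 3. The library titles carry the same 4 APOBEC1-YTH numbers in every region, and 2 of the 3 APOBEC1-YTHmut numbers recur in hippocampus. By these numbers the regions came from the same mice. APOBEC1-YTH joins a cytidine deaminase to an m6A-binding domain and turns cytidines near m6A into uridines, and APOBEC1-YTHmut served as the background control for such edits. The series describes the APOBEC1-YTH transgene as tamoxifen-inducible, and the tamoxifen was given to both genotypes. For the promoter of the transgene and the age of the mice, nothing is given in the sources used here. Each region is represented by 1 pooled list with 1 editing level per site, so no level has a replicate error, and read depth is unknown.

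m6A is written on messenger RNA by the METTL3 and METTL14 methyltransferase complex, lies mostly around stop codons and in the sequence after them, and is bound by YTH-domain readers that affect splicing, translation and decay. The hippocampus is made of the dentate gyrus and the fields CA1, CA2 and CA3, whose principal neurons carry distinct sets of transcripts and are known for their part in memory. A site can be listed only where a transcript is present and read deeply enough. In bulk tissue, fewer cells of a type, less RNA per cell and less methylation of that RNA cannot be told apart from the lists.

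Most of the hippocampus-only genes had a single edited cytidine. One site was listed for 170 of the 195 genes, 87.2% (exact binomial 95% interval 81.7 to 91.5%, genes taken as independent), 2 sites for 17 genes and 3 or more for 8. Of the other 2352 hippocampal genes, 727 had 1 site, 30.9% (29.05 to 32.8%), and 1222 had 3 or more, 52.0%. Site number is not independent of the way the genes were chosen, so these intervals are no test of a difference. The genes were spread over every autosome and the X chromosome, with chromosome 12 (3 of 93 hippocampal genes) and chromosome 13 (13 of 106) at the ends of the range. RefSeq annotation of GRCm38.p6, the assembly of mm10, matched 193 of the 195 symbols, of which 191 were protein-coding and 2 long noncoding RNA genes.

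The gene with the most sites was Fibcd1, which encodes a transmembrane receptor for acetylated structures such as chitin and is a known CA1 marker. Its 20 sites lay on the minus strand of chromosome 2 between positions 31813750 and 31816356 (mm10), within the annotated gene at 31813290 to 31846964. The lowest level was 1.49%, the median 2.89% and the highest 18.6%. The mean was 5.20% with an SD of 4.61 over the 20 sites, which is a spread between sites and not between animals. Levels of 10% or more stood at 3 sites, of 10%, 13.04% and 18.6%. The outer 2 of them were 149 nt apart, and the 3 lay at 2186, 2282 and 2335 nt upstream of the annotated 3′ end. Another 5 sites were at 5 to 10% and 12 were below 5%.

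The sites of Fibcd1 spanned 2607 nt with a median gap of 90 nt. High and low sites stood side by side. The site at 18.6% had a neighbour at 1.90% that lay 14 nt further upstream, and the site at 13.04% had one at 1.49% at a distance of 17 nt. The 2 sites nearest to the 3′ end, at 460 and 765 nt, were at 2.16% and 1.92% and were parted from the rest by the largest gap, 907 nt. Fibcd1 alone supplied 7.97% of the 251 sites, and the median level of the other 231 sites was 3.08%, the same as with Fibcd1 included.

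Nr3c2, which encodes the mineralocorticoid receptor, a high-affinity receptor for corticosterone, had 6 sites on the plus strand of chromosome 8. From 5′ to 3′ their levels were 4.12%, 1.64%, 3.62%, 6.49%, 6.45% and 1.74%, at positions 77242618 to 77242987 (mm10). All 6 fell within 370 nt, 2025 to 2394 nt upstream of the annotated 3′ end, with the highest pair 16 nt apart. Nr3c2 was 1 of 2 hippocampus-only genes among 3 hippocampal genes in the list of steroid receptors and chaperones. The other, Esr1 for estrogen receptor alpha, had 1 site at 2.04% (chromosome 10, position 4997912).

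Tgfb2, which encodes the ligand transforming growth factor beta 2, had 4 sites on the minus strand of chromosome 1. Their levels were 5.26% at position 186624877, 10% at 186624900, 4.76% at 186625082 and 5.41% at 186625234 (mm10). Its mean of 6.36% was the highest among the 8 genes with 3 or more sites. The list of TGF-beta and BMP pathway genes had 7 members in the hippocampal list, and Tgfb2 was the only one of them listed nowhere else. The receptor genes of this pathway were shared: Acvr1b had 10, 5 and 4 sites in cortex, hippocampus and cerebellum, Bmpr1a 4, 2 and 2, and Bmpr2 7, 5 and 0.

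Hars, which encodes cytoplasmic histidyl-tRNA synthetase, and Zbtb20, which encodes a repressor needed for the identity of hippocampal pyramidal neurons, had 4 sites each. The sites of Hars were close to its annotated 3′ end, at 57, 235, 282 and 299 nt, with levels of 3.17%, 3.41%, 3.48% and 2.68%. The sites of Zbtb20 had levels of 2.97%, 1.44%, 1.69% and 1.5%. They lay on chromosome 16 between positions 43640966 and 43641379, which is 6574 to 6987 nt beyond the end of the RefSeq gene span at 43634392. The gene models behind the deposited symbols are unknown here.

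Kctd4, which encodes a BTB-domain protein, had sites at 2.02%, 3.81% and 6%, the last of them 756 nt beyond the annotated gene end. Eif4b, which encodes the initiation factor that stimulates the helicase eIF4A, had sites at 1.20%, 2.42% and 2.01%. The third gene with 3 sites, the clone-named gene 2900026A02Rik, was outside the naming rule and had levels of 3.85%, 5.56% and 6.67%. In the genes with 3 or more sites, 10% was reached in Fibcd1 and Tgfb2 and in none of the other 6.

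**Figure D1:**
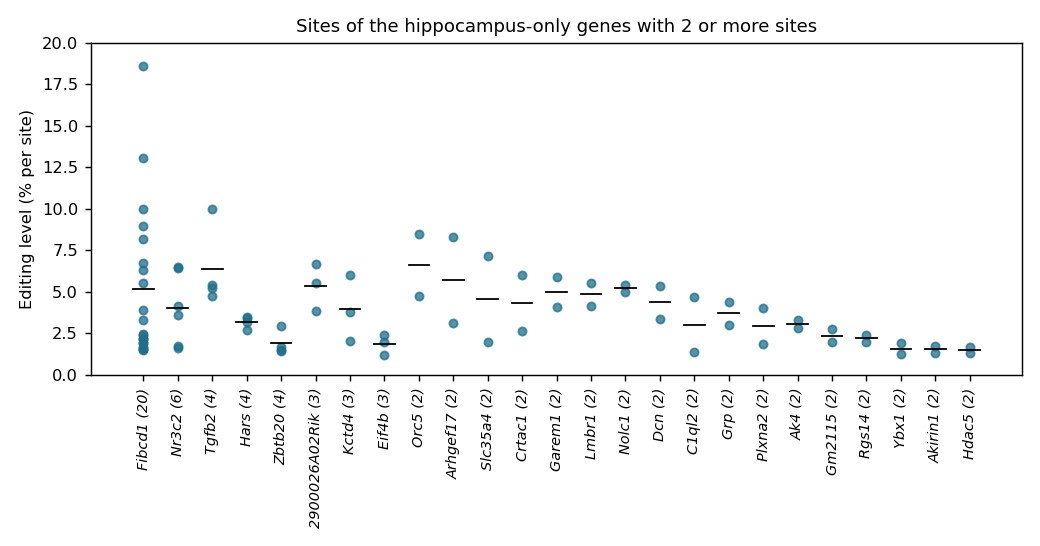
Editing level in percent (vertical axis) of every site in the 25 hippocampus-only genes with 2 or more sites, with the number of sites in brackets. Each point is 1 site in the pooled hippocampal list and each bar is the mean over the sites of a gene. Fibcd1 spans 1.49 to 18.6%, while the 4 sites of Hars lie between 2.68 and 3.48%.

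**Figure D2:**
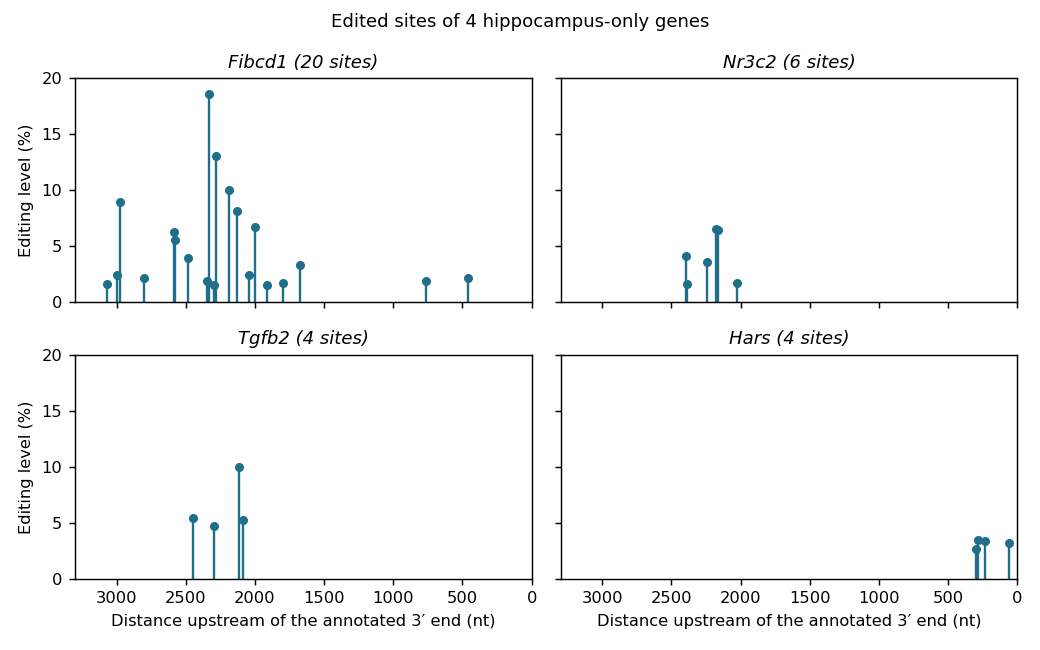
Editing level in percent (vertical axis) against the distance upstream of the annotated 3′ end in nt (horizontal axis, 3′ end at the right) for 4 genes; each line with a point is 1 site. The sites of Nr3c2 and Tgfb2 lie within 370 and 358 nt, those of Hars within 299 nt of the gene end, and those of Fibcd1 are spread over 2607 nt.

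Among the 17 genes with 2 sites were several known for hippocampal neurons. C1ql2, which encodes a synaptic organiser released by mossy fibres of dentate granule cells, had sites at 4.69% and 1.36% that lay 28 nt apart. Grp, which encodes gastrin-releasing peptide, had sites at 4.41% and 3.03%. Rgs14, which encodes a regulator of G-protein signalling that limits plasticity in CA2, had sites at 2.38% and 2.01%, also 28 nt apart. Dcn, which encodes the matrix proteoglycan decorin, had sites at 3.35% and 5.38%.

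The remaining 2-site genes reached higher levels in a few cases. Orc5, for a subunit of the origin recognition complex, had 8.47% and 4.76% at sites 19 nt apart and was the only gene of the neural stem cell and cell division list with hippocampal sites. It was known to belong here when that list was written. Arhgef17 had 8.33% and 3.12%, both about 59 kb from the annotated 3′ end (59175 and 59715 nt) in a gene of 62416 nt. Slc35a4, of the nucleotide sugar transporter family, had 7.14% and 2%. Both sites of Ybx1, Akirin1 and Hdac5 were below 2%.

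Clusters were uncommon among these genes as a whole. Another hippocampal site lay within 50 nt of 31 of the 251 sites, 12.4%, against 55.5% of the other 13210 hippocampal sites. Of these 31 sites, 10 were in Fibcd1, and 10 of the 195 genes had any such pair. For the 170 genes with 1 site, no second site of the same gene exists, and the difference was not tested.

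The median and quartiles of the levels over sites were slightly above those of the other hippocampal sites, while high levels made up a smaller share. Taken per gene, the order was the other way. The median of the gene means was 3.075%, against 3.448% for the other hippocampal genes. The medians of the highest level per gene were 3.08% and 5.355%, taken over a mean of 1.287 and 5.616 sites per gene. The 251 sites ranged from 1.01 to 23.5%, with a median of 3.08% and quartiles of 1.86% and 5.00%. The other hippocampal sites ranged from 1 to 71.5%, with a median of 2.82% and quartiles of 1.82% and 4.76%. Of the hippocampus-only sites, 73 (29.1%) were below 2%, 114 were at 2 to 5%, 55 (21.9%) at 5 to 10% and 9 (3.59%) at 10% or more. The shares of the other sites were 30.5% below 2%, 17.1% at 5 to 10% and 6.18% at 10% or more. A level of 20% or more occurred at 1 of the 251 hippocampus-only sites (0.398%) and at 215 of the 13210 others (1.63%).

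The order of the medians differed between genes with 1 site and genes with more. In genes with 1 site, the median was 2.87% for the 170 hippocampus-only genes and 3.45% for the 727 others. A single site at 10% or more was found in 5 of these 170 genes (2.94%) and in 96 of the 727 (13.2%). In genes with 2 or more sites, the medians over sites were 3.33% (81 sites) and 2.78% (12483 sites). With 1 pooled value per site, whether these differences exceed the variation between animals is not known.

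**Figure D3:**
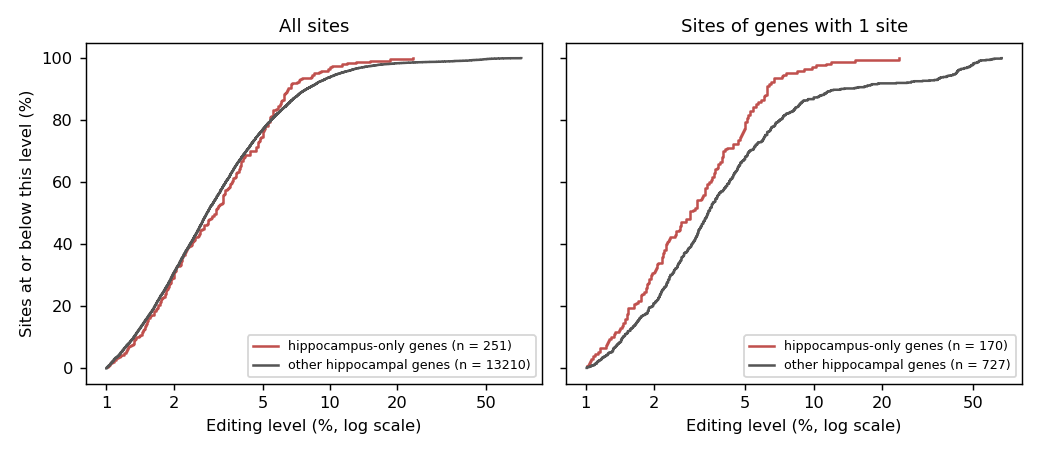
Cumulative percentage of sites (vertical axis) at or below an editing level in percent (horizontal axis, log scale) for hippocampus-only genes (red) and other hippocampal genes (grey), over all sites (left) and over genes with 1 site (right). The curves lie close together for all sites, with medians of 3.08% and 2.82%; among 1-site genes the grey curve runs to 66.7% and the red one ends at 23.5%.

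The highest levels in single genes came from genes of varied function. The highest, 23.5%, was at the only site of the clone-named gene 3830406C13Rik (chromosome 14, position 12301915), which falls outside the naming rule. After Fibcd1 at 18.6% came B4galt4, for a galactosyltransferase, at 15.2% (chromosome 16, 38768109). Mllt3, for a YEATS-domain reader of acylated histones, followed at 11.9% (chromosome 4, 87773240). The predicted gene Gm49361, also outside the naming rule, had 1 site at 11.29%. Arl15, for an Arf-like GTPase, was at 10.2% (chromosome 13, 114155038) and Rnf2, for the catalytic ubiquitin ligase of Polycomb repressive complex 1, at 9.80% (chromosome 1, 151471228). Next among genes with 1 site were Tagap1 at 9.09% and Keap1, for the cullin adaptor that controls NRF2, at 8.45%. The semaphorin co-receptor gene Nrp1 was at 7.53%, the kinase gene Cdk13 at 7.35%, Gpr107 at 7.27% and the lysosomal arylsulfatase gene Arsa at 6.67%. Genes with more sites also fell in this range: Tgfb2 at 10%, Orc5 at 8.47%, Arhgef17 at 8.33% and Slc35a4 at 7.14%. Apart from Fibcd1, Tgfb2, Orc5, Arhgef17 and Slc35a4, each of the 15 named genes with the highest levels had 1 site.

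How often a hippocampal gene was absent from the other lists fell with its number of sites. It was 170 of 897 genes with 1 site, 19.0% (exact 95% interval 16.4 to 21.7%), 17 of 420 with 2 sites, 4.05% (2.38 to 6.40%), 6 of 435 with 3 to 4 sites, 1.38%, and 1 of 418 with 5 to 9 sites, 0.239%. Fibcd1 was the single gene absent elsewhere among 377 with 10 or more sites, 0.265%, and Nr3c2 was the one with 5 to 9. Within the 1-site genes, the share absent elsewhere was 25.5% (19.7 to 32.05%) at levels of 1 to 2%, 19.3% at 2 to 3%, 18.6% at 3 to 5%, 19.4% at 5 to 10% and 4.95% (1.63 to 11.2%) at 10% or more. The intervals treat genes as independent and do not cover animals. They are no test, because absence elsewhere is not independent of site number.

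**Figure D4:**
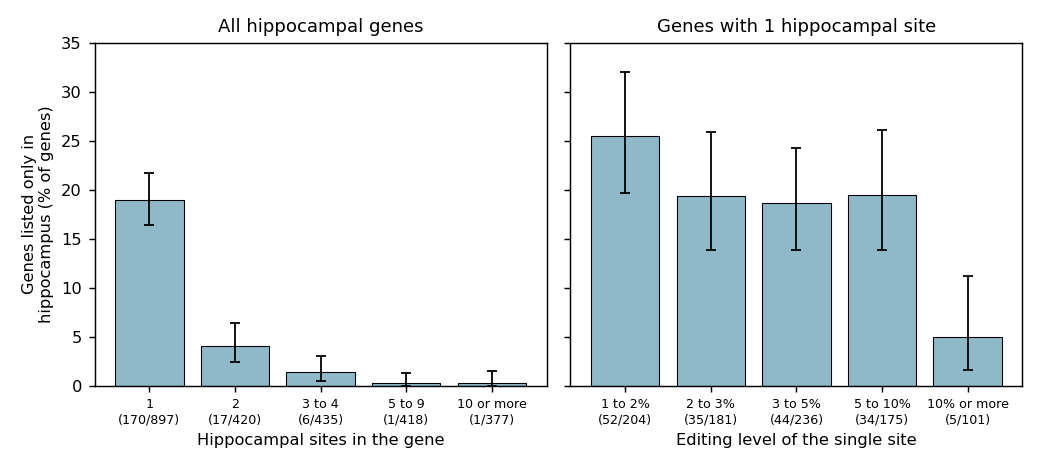
Percentage of hippocampal genes listed in neither other region (vertical axis) by number of hippocampal sites (left) and, for 1-site genes, by editing level (right); brackets give the counts and error bars are exact binomial 95% intervals. The share falls from 19.0% at 1 site to 0.265% at 10 or more sites, and is lowest, 4.95%, for single sites at 10% or more.

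The edge of the group was close for many genes. Just outside it were 274 hippocampal genes with exactly 1 site in the other lists together, 224 of them in cortex and 50 in cerebellum. Of these, 231 also had 1 hippocampal site, 35 had 2 and 8 had 3, and none had more. The genes with 3 hippocampal sites, chosen after their values were seen, included Gfra1, for a co-receptor of GDNF, with a highest hippocampal level of 7.14% and 1 cortical site at 6.67%. The transcription factor gene Bcl11b was at 6.03% with a cortical site at 6.90%, and Hepacam, a glial adhesion gene, at 2.99% with a cerebellar site at 5.26%. No gene with 5 or more hippocampal sites stood at this edge, so Fibcd1 with 20 and Nr3c2 with 6 had no near counterpart there.

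No hippocampus-only site had a listed site of another region close to it under a different symbol. None of the 251 sites shared its position with the cortical or cerebellar list, and none had a site of those lists within 1000 nt on the same strand. The smallest distance was 3929 nt, and 2 of the 195 genes, Nop10 and Rhbdl1, came within 5000 nt. The same positions were thus not listed in the other regions under another symbol.

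Sites lay towards the 3′ end of their genes. Of 244 sites within the annotated span of their gene, 223 (91.4%) were within 5000 nt of its 3′ end and 113 (46.3%) within 1000 nt, measured along the genome. For the other hippocampal sites these shares were 88.7% and 37.1%, and the median distances were 1167 nt and 1461 nt. The genes themselves had a median length of 26835 nt against 34066.5 nt for the other genes. Far from the end were the site of Cdh8, a cadherin gene, at 255139 nt, that of the sorting nexin gene Snx12 at 122636 nt and both sites of Arhgef17. Exons and introns were not assigned here.

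Markers of the hippocampal fields were compared with the background share of 7.66%. Of 70 genes in the 4 lists of dentate, CA1, CA2 and CA3, and subicular and mossy cell markers, 20 had hippocampal sites and 8 of these were listed in hippocampus alone: C1ql2, Dcn, Fibcd1, Nr3c2, Grp, Rgs14, Tgfb2 and Calb2. Fibcd1, Nr3c2 and Tgfb2 were known to belong here when the lists were written. Without them the count was 5 of 17. Calb2, for the calcium-binding protein calretinin of mossy cells and interneurons, had 1 site at 3.64% (chromosome 8, position 110142629). The other field markers with hippocampal sites were listed in cortex too, except Pcp4, which had 1 hippocampal and 2 cerebellar sites. Mpped1 had 22 cortical and 25 hippocampal sites, Wfs1 9 and 10, Tshz2 14 and 30, and Pou3f1 2 and 5.

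In the list of pyramidal neuron regulators, Zbtb20 and Kctd4 were hippocampus-only among 11 hippocampal genes, and both had been known beforehand. Of the glial and cerebellar lists, 0 of 15 astrocyte, 0 of 6 oligodendrocyte lineage and 0 of 3 cerebellar granule and Purkinje cell markers with hippocampal sites were hippocampus-only. In groups this small, a count of 0 is not far from the background share of 7.66%. Several of these markers also had many hippocampal sites, such as Slc1a2 with 57 and Mobp with 22. Of all genes with 10 or more sites, 0.265% were absent elsewhere. Microglia and choroid plexus or ependymal markers had no hippocampal site at all. Calb2 was also the only one of 7 GABAergic interneuron markers, and Dcn, which fibroblasts of the vessel wall make as well, the only one of 6 endothelial and mural ones. How far the numbers of these cells in the dissected tissue set the lists was not tested. Over all 26 lists, 29 of 197 hippocampal genes were hippocampus-only, 14.7%, and 21 of 189, 11.1%, without the 8 genes known beforehand. The lists are not independent of these data and none was tested.

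Adhesion and axon guidance genes were the list with the most hippocampus-only members, 8 of 25 with hippocampal sites. Neurons use these receptors and ligands to steer axons and to match synaptic partners. This was also the largest list, with 78 genes. Its share, 32.0%, lay above the background of 7.66% and below that of some shorter lists, such as CA1 markers with 42.9%. Among its semaphorin, plexin and neuropilin genes, a grouping made after the values were seen, 3 of 8 with hippocampal sites were hippocampus-only. These were the ligand gene Sema3e (1 site, 6.25%), the receptor gene Plxna2 (2 sites, 4% and 1.85%) and the co-receptor gene Nrp1 (1 site, 7.53%). Plxnb1, Sema4g, Sema6b, Sema6d and Sema7a were listed in cortex as well. Plxnd1, Sema4f and Sema5a went the other way, with 3, 1 and 1 sites in cortex and none in hippocampus or cerebellum. The cadherin genes Cdh8 and Cdh11 had 1 site each at 4% and 3.80%, the ephrin receptor gene Epha6 1 site at 3.64%, the netrin receptor gene Unc5a 1 site at 1.75% and the adhesion gene Ncam1 1 site at 1.46%. Close relatives were listed in cortex as well: Epha4 had 23 cortical and 28 hippocampal sites, and Cdh13 6 and 7. Others were listed in cortex alone: Cdh10, Epha5 and Ncam2 had 1, 1 and 3 sites there. Outside the list, Mdga1, for a membrane protein that binds neuroligin, had a site at 5.88% and Tjp1, for the junction scaffold ZO-1, one at 3.95%.

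Neurotransmitter receptor and ion channel genes contributed few and single sites. Grin2c, for the NMDA receptor subunit GluN2C, had 1 site at 5.00% (chromosome 11, position 115249416) and was the only hippocampus-only gene of 10 glutamate receptor genes with hippocampal sites. Gria1, for an AMPA receptor subunit, had 26, 31 and 38 sites in cortex, hippocampus and cerebellum. Scn3a, for the sodium channel Nav1.3, had 1 site at 6.25% and was 1 of 15 sodium and calcium channel genes. Adra1d, for the alpha-1D adrenergic receptor, had 1 site at 3.94% and was 1 of 4 monoamine and acetylcholine receptor genes. Of 12 GABA and glycine receptor and 13 voltage-gated potassium channel genes, 0 were hippocampus-only. With so few genes per list, none of these gene counts is far from the background share of 7.66%. Axl, a receptor tyrosine kinase gene, was at 4.17% and Gpr37, an orphan receptor gene enriched in oligodendrocytes, at 3.95%.

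Arc, the activity-regulated gene whose product acts in AMPA receptor endocytosis, was the only hippocampus-only gene of 7 immediate early genes with hippocampal sites. Its single site was at 1.16% (chromosome 15, position 74671072), near the lower limit of the list at 1%. Egr3 had 18 cortical and 10 hippocampal sites, and Egr1 had 2 in each of them. Dusp1, Nptx2, Egr4 and Ier5 of this list were listed in cortex alone, with 3, 4, 1 and 1 sites. Among m6A writers, erasers and readers, 2 of 6 hippocampal genes were hippocampus-only, 33.3% beside the background share of 7.66%. Ythdf3, for a cytoplasmic m6A reader, had 1 site at 3.57% (chromosome 3, position 16214173), and Hnrnpc, for a nuclear RNA-binding protein whose access to RNA is known to depend on m6A, had 1 at 1.33%. The related reader gene Ythdf2 had 13, 15 and 8 sites in cortex, hippocampus and cerebellum. Wtap and Fmr1 of the same list were listed in cortex alone, with 3 and 1 sites. Of the Wnt pathway and of neurotrophins, growth factors and their receptors, 0 of 7 and 0 of 10 were hippocampus-only. In lists this short, counts of 0 and the 1 of 7 immediate early genes are not far from the background share of 7.66%.

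Translation genes in the group were Hars, Eif4b and Eif4a1, 3 of 15 in the list of initiation factors and tRNA synthetases. This was 20.0%, beside the background share of 7.66%. Without Hars and Eif4b, which were known beforehand, only Eif4a1 was left. Aars, Eif3a and Eif5a of this list had 1, 2 and 1 cortical sites and none in hippocampus or cerebellum. Eif4a1, which encodes the helicase eIF4A that eIF4B stimulates, had 1 site at 1.06%. Its relative Eif4a2 had 2, 1 and 3 sites in cortex, hippocampus and cerebellum. The mitochondrial ribosomal protein genes Mrpl41 (6.10%), Mrps17 (5.26%) and Mrpl50 (4.88%) had 1 site each. Gspt2, for a translation termination factor, was at 3.49%, Abcf1 at 3.08% and Btf3l4 at 1.83%.

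To describe the whole group, all 195 genes were assigned by hand to functional classes after their values had been seen, so the class sizes are compared with nothing. Transcription and chromatin formed the largest class with 25 genes and 35 sites, a median level of 2.74%, and 21 genes with 1 site. Beside Nr3c2, Zbtb20, Mllt3, Rnf2, Cdk13 and Esr1 it held the zinc finger gene Zfp180 at 6.06%, the class IIa histone deacetylase gene Hdac5 at 1.71% and 1.32%, and Akirin1 at 1.74% and 1.33%. RNA processing had 14 genes, led by the nucleolar phosphoprotein gene Nolc1 with sites at 5.00% and 5.41%. The splicing factor SF3B was present with 2 subunit genes, Sf3b3 at 4.82% and Sf3b5 at 3.33%. Cdkn2aipnl was at 4%, the ribonucleoprotein gene Nop10 at 2.86% and the cap-binding gene Ncbp2 at 2.50%, while the Y-box protein gene Ybx1 had sites at 1.90% and 1.24%.

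Extracellular ligands, binding proteins and matrix were a class of 10 genes with 36 sites. Its median over genes of the highest level, 5.04%, was above that of the other classes, which ran from 2.19 to 4.72%, and Fibcd1 and Tgfb2 gave its top values. Only 4 of its genes had 1 site, so its highest levels were taken over more sites per gene. Its median over sites, 3.625%, was not the highest. Adhesion and axon guidance (3.875%), clone-named, predicted or noncoding genes (3.85%) and lipid, sugar and other enzymes (3.67%) were above it, and the remaining classes were below. It also held Frzb, for a secreted Wnt antagonist, at 6.52%, Crtac1 at 6% and 2.63%, and the chemokine gene Cxcl14 at 2.19%. Small GTPases and kinase signalling had 19 genes, among them Garem1 (5.88% and 4.08%), the Ras-family gene Rit1 at 6.25%, the Rab chaperone gene Rabif at 4.84%, Rab3ip, for an exchange factor of Rab8, at 4.41% and the Sprouty gene Spry2 at 3.90%. Channels, receptors, transporters and second messengers had 19 genes as well, at a median level of 2.88%.

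Metabolic and mitochondrial genes had mostly single sites. All 18 genes for lipid, sugar and other enzymes had 1 site, at a median level of 3.67%. After B4galt4 and Arsa they included Plppr5 at 6.35%, the lipid droplet hydrolase gene Ldah at 5.56%, Uap1, for an enzyme of UDP-N-acetylglucosamine synthesis, at 5.08%, Ggact at 5.00%, Osbpl6 at 4.65% and the glycolipid transfer gene Gltp at 4.41%. Mitochondria and energy metabolism had 11 genes and the lowest median of highest levels, 2.19%. In it were the respiratory complex I genes Ndufa9 (4.76%) and Ndufa12 (2.86%), the complex III assembly gene Uqcc3 (3.70%), Rhot1, which links mitochondria to motors (3.41%), the adenylate kinase gene Ak4 (3.33% and 2.82%), Armcx3 (2.19%), Pfkp (1.67%) and Pdhb (1.63%).

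Protein turnover and traffic were represented by 14 and 13 genes, each with 1 site. After Keap1, the deubiquitinase gene Otub2 was at 6.67%, Rnf24 at 6.25%, the HECT ligase gene Wwp2 at 5.41% and Marchf9 at 5.00%, and Rhbdl1 (2.74%), Capn15 (2.60%) and the autophagy protease gene Atg4c (2.20%) were lower. In vesicle traffic the endosomal gene Dnajc13 was at 6.06%, Golm1 at 5.00%, Snx12 at 4.08%, the Golgi SNARE gene Stx5a and Tmem199 at 3.33% each, and Dtnbp1, for dysbindin, at 2.33%. The tethering genes Vps11 and Vps53 had the same level, 3.08%. Of 11 cytoskeletal and postsynaptic scaffold genes, each with 1 site, Synm, for the intermediate filament protein synemin, was highest at 5.71%. It was followed by the actin-binding gene Coro1c at 5.43%, the kinesin gene Kif2a at 5.08%, Tpgs1 at 3.70%, the scaffold gene Tanc1 at 3.33%, Slain1 at 2.94%, Lzts3 at 1.77% and the Arp2/3 gene Arpc1a at 1.53%.

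A further 12 genes were left without a class and 8 were clone-named, predicted or noncoding. Of the former, Lmbr1 had sites at 5.56% and 4.17%, and Tmem184b (4.92%), Tmcc1 (4%), Tmem8b (2.86%), Dnajc18 (2.47%) and Fam174a (2.26%) had 1 site each. The latter ranged from 1.51 to 23.5%, with Pantr1, a long noncoding RNA gene named here although it lies outside the naming rule, at 1.51%.

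**Figure D5:**
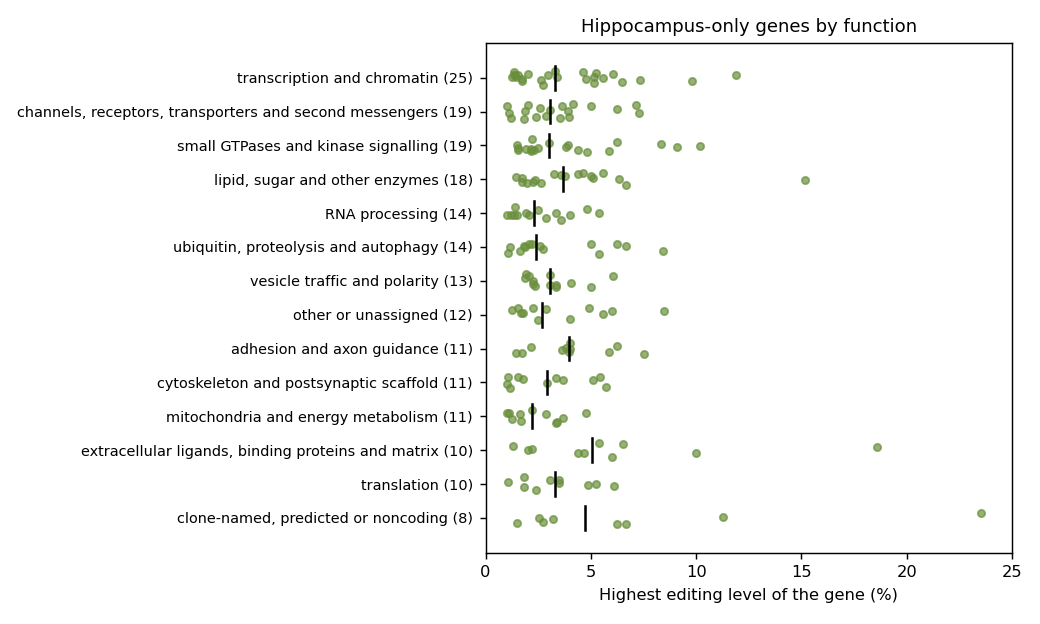
Highest editing level in percent (horizontal axis) of each of the 195 hippocampus-only genes, by functional class (vertical axis, number of genes in brackets). Each point is 1 gene, spread vertically for display, and each black line is the class median. Class medians lie between 2.19 and 5.04%, and values of 10% or more occur in 7 genes.

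The same choice made in the other lists gave larger groups. Cortex had 648 genes listed nowhere else, 20.5% of its 3163 genes, and cerebellum 289, 12.97% of its 2228. Single-site genes were 73.8% of the cortical and 66.8% of the cerebellar group, beside 87.2% in hippocampus. At least 5 sites were found in 25 of the cortical, 28 of the cerebellar and 2 of the hippocampal genes. The largest number of sites in a gene was 22, 47 and 20, and the median levels were 3.61%, 4.08% and 3.08% in the order cortex, cerebellum, hippocampus. Levels of 10% or more were reached by 7.70% of the cortex-only, 13.9% of the cerebellum-only and 3.59% of the hippocampus-only sites. The lists differ in depth by an unknown amount and in the number of APOBEC1-YTHmut libraries, 2 for hippocampus and 3 for the others, and the part of either in these values was not tested.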

How the data were processed

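Edited sites were listed from bulk polyA RNA-seq of 20 libraries whose titles carry 4 numbers for APOBEC1-YTH mice and 3 for APOBEC1-YTHmut mice, made from 900 ng of total RNA each, per the labels' protocols. STAR 2.7.5 and the build mm10 are named in the submitters' processing notes. For the site caller, its thresholds and the pooling of libraries, nothing is given in the sources used here. The authors deposited 1 list per region without a header, in which a fraction stands for each site; how it was computed from the alignments is not recorded in the labels. It is taken here as the edited fraction of reads, which the lists do not state, and printed as percent. Positions are 1-based; all 63 listed sites of any region that fall in a RefSeq promoter sequence (GRCm38.p6) were a C on the listed strand. No hippocampus-only site fell in one, so bases around these sites were not analysed here.

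Values per library, depth and control levels were not used here, so no test between samples was made. Intervals are exact binomial and cover counting of genes only. Gene spans came from RefSeq by symbol. The members and gene lists were chosen with earlier results of these data known, including 8 of the members. Named were genes with 3 or more sites, the 15 with the highest level, every gene in a list, and up to 8 per class by site number and then level, with clone-named genes replaced by the next, 111 in all. The scripts were tested on simulated data and used Python 3.11.15, pandas 2.3.3, numpy 2.4.6, scipy 1.17.1 and matplotlib 3.10.9. Alternatives were limits on the level, other rules for absence, merging of near sites and 2 sites per gene.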

Additional observations from a re-analysis of the deposited data

How the results depend on the processing

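No paired analysis was possible because each region has 1 pooled list without values per animal. The group depends most on the comparison list and on weak sites. Judged against cerebellum alone, 855 genes with 2516 sites were listed only in hippocampus and 58.0% had 1 site; against cortex alone the numbers were 279 and 361. With a limit of 10% in every list, 76 genes with 82 sites were listed only in hippocampus, with a median level of 11.2% and 93.4% at 1 site, and 7 of these genes were among the 195. With a limit of 5% in every list the median was 6.25% and 52 of 182 genes were among the 195. At 2% the number was 196, of which 140 were. A limit of 5% in the hippocampal list alone left 52 genes and 64 sites with a median of 6.25%, and requiring 2 sites left 25 genes and 81 sites. Limits on the level raise the median by construction. Fibcd1 was listed in hippocampus alone under each of these settings, but this was fixed beforehand. It has no site in the other lists and 3 hippocampal sites at 10% or more, so no setting could remove it. The rules on distance to other lists' sites had no gene to remove, so they tested nothing. Merging sites within 10 nt left 195 genes and 248 sites. With depth unknown, absence of a gene does not mean that its RNA lacked m6A.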
